A study of Mus musculus with 16 samples.

Results

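The lysosomal cathepsins are the acid proteases of the endosome and lysosome, and 9 of them were followed here, as 9 of the 23999 gene symbols in the count table. They were chosen from these data, because Ctsl was far higher in myeloid sarcoma than in bone marrow, so the tissue difference of every member is a description that supports nothing. The 9 members are Ctsl, Ctsb, Ctsk and Ctss, which encode cysteine endopeptidases, Ctsh, Ctsz and Ctsc, which encode cysteine exopeptidases, Ctsd, an aspartic endopeptidase, and Ctsa, a serine carboxypeptidase. All 9 passed the filter on low counts in both comparisons.

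Cathepsins are made as inactive precursors, carry a mannose 6-phosphate tag to the lysosome, and are activated there by low pH and by cleavage. Cystatins and stefins hold the cysteine cathepsins in check, and transcription factors of the MiT/TFE group are known to switch on lysosomal genes through an E-box. In myeloid cells cathepsins degrade ingested protein, prepare antigen and activate granule proteases, and macrophages and osteoclasts also secrete some of them.

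RNA was sequenced from leukaemic mice carrying NPM1cA, the cytoplasmic mutant nucleophosmin of acute myeloid leukaemia, either in tumours of leukaemic cells outside the marrow (myeloid sarcoma) or in marrow infiltrated by the leukaemia. All marrows and all sarcomas but one came from mice labelled NPM1cA/SMC3+/-, which carry a heterozygous mutation of the cohesin subunit gene Smc3 as well. The 16 libraries gave 14 samples of 1 mouse and tissue: 9 SMC3+/- marrows, 4 SMC3+/- sarcomas from 6 tumour libraries, and the sarcoma of mouse 841, labelled NPM1cA with wild-type SMC3. Mice 948 and 2721 gave 2 tumours each, mice 1267 and 2721 gave both tissues, and the label 1268_1270 may name 2 pooled mice and was treated as 1. The labels used here name neither age nor sex, nor the Cre or promoter behind the alleles. Tumours went straight into Trizol whereas marrow was filtered and its red cells were lysed first, so tissue and handling cannot be told apart.

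Total counts ran from 9797201 in the sarcoma of mouse 841 to 39197660 in a marrow. Levels are CPM, the count scaled to a fixed library total after correction by the trimmed mean of M-values (TMM). Smc3 itself stood at 138 CPM in the sarcoma of mouse 841, at 65.9 to 197 CPM in the SMC3+/- sarcomas and at 3.58 to 218 CPM in the marrows, so the sarcoma of mouse 841 lay inside the range of the SMC3+/- sarcomas. In 4 libraries the counts of transcripts over 6 kb were low, where the marrows of mice 737, 779 and 782 had median log2 deviations of -2.53, -2.52 and -2.26 and the first tumour of mouse 948 had -0.78. The other 12 libraries lay between -0.55 and 0.59 on that measure, and results that rest on the 4 libraries are given with and without them. Smc3 was 3.58 to 8.64 CPM in those 3 marrows and 142 to 218 CPM in the other 6. The sarcoma of mouse 1268_1270 stood apart from the other 3 SMC3+/- sarcomas. Its summed pan-leukocyte markers were 710 CPM against 5587 to 10188 CPM, its neutrophil markers 850 CPM against 44075 to 74020 CPM, and its adipocyte markers 44835 CPM against 199 to 560 CPM, so little leukocyte RNA was found in a sample labelled myeloid sarcoma. The SMC3+/- sarcomas also held far more RNA of several stromal and macrophage marker genes than the marrows did. In bulk tissue fewer cells of a type and less RNA per cell cannot be told apart.

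Ctsl encodes cathepsin L, a broad endopeptidase that also clips other lysosomal precursors. Its level in the marrows was 29.8 CPM at the lowest, 59.7 CPM at the median and 106 CPM at the highest. In the SMC3+/- sarcomas it was 558 CPM in mouse 948, 835 CPM in mouse 1267, 621 CPM in mouse 2721 and 865 CPM in mouse 1268_1270. Every sarcoma therefore lay above every marrow, with a wide gap between the groups. The means were 720 ± 153 CPM (SD, n = 4) and 59.7 ± 24.0 CPM (SD, n = 9), a ratio of 12.1 and a fitted log2 fold change of 3.59 ± 0.33 (SE). Counts behind these levels ranged from 743 to 1869 in the marrow libraries and from 4847 to 31898 in the tumour libraries. Without the 4 libraries low in long transcripts the ratio of means was 17.1. Without the sarcoma of mouse 1268_1270, which was the highest in Ctsl, the log2 fold change was 3.50.

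The promoters of Ctsl, Ctsd and Ctsk, the members whose sarcoma and marrow levels did not overlap, are printed to show where E-boxes lie. The sequences are from RefSeq on GRCm38.p6, 250 bases before to 50 after the start on the coding strand, 5′ to 3′, with each E-box core CACGTG in capitals. The Ctsl promoter is chr13:64370471-64370770 (minus strand), that of Ctsd is chr7:142387778-142388077 (minus strand) and that of Ctsk is chr3:95498960-95499259 (plus strand).
Ctsl: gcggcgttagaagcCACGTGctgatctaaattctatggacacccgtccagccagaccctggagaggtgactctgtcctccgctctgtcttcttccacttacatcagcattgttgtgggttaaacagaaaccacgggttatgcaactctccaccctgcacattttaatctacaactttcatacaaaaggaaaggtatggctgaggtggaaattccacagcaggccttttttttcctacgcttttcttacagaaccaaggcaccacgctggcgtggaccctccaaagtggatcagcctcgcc
Ctsd: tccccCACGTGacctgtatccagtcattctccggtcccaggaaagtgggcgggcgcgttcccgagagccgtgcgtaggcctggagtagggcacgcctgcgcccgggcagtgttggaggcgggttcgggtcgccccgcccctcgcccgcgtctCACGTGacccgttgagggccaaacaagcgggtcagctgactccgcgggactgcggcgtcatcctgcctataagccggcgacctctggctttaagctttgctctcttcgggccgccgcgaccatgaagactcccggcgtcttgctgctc
Ctsk: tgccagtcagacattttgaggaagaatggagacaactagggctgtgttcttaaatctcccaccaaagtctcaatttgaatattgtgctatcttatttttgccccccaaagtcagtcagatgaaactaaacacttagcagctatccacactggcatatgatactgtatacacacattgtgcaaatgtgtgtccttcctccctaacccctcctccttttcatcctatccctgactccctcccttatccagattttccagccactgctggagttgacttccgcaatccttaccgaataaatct
The core, which reads the same on both strands, was found in 7.15% of all 32851 promoters in the table. Of 8 promoters listed for 7 members (Ctsa has 2, and Ctsb and Ctsh have none in the table), 3 held it. The Ctsl promoter held 1, starting 236 bases before the start, and the Ctsd promoter held 2, starting 245 and 98 bases before it. The 8-base form TCACGTGA, which contains the core and occurs in 0.974% of all promoters, was in the Ctsd promoter and in 1 Ctsa promoter. The promoters of Ctsk, Ctss, Ctsz and Ctsc held no core in this window. A match of letters is a description and shows no binding.

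Ctsb encodes cathepsin B, an endopeptidase that also removes dipeptides from carboxyl ends. Marrow levels were 335 CPM at the lowest, 631 CPM at the median and 1602 CPM at the highest, and sarcoma levels were 1740 CPM in mouse 948, 1868 CPM in mouse 1267, 1567 CPM in mouse 2721 and 3303 CPM in mouse 1268_1270. The groups overlapped by 1 sample, since the sarcoma of mouse 2721 lay just below marrow 737. The ratio of means was 2.66, with 2120 ± 799 CPM (SD, n = 4) against 797 ± 410 CPM (SD, n = 9). The 3 highest marrows for Ctsb were the libraries low in long transcripts, and without the 4 such libraries the ratio was 3.99 and the groups did not overlap. The fitted log2 fold change of Ctsb was 1.41, and 1.12 without the sarcoma of mouse 1268_1270, the highest of all samples.

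Ctsk encodes cathepsin K, the collagen-degrading protease best known from osteoclasts. It was the scarcest member in every marrow by level per kilobase, from 0 counts in marrow 949 to 27.8 CPM in marrow 1267, with a median of 6.69 CPM. For marrow 949 a count of 0 allows up to 3 counts, or 0.155 CPM. Sarcoma levels were 30.2 CPM in mouse 948, 94.4 CPM in mouse 1267, 435 CPM in mouse 2721 and 41.7 CPM in mouse 1268_1270. The groups did not overlap, but the lowest sarcoma stood close to the highest marrow, and the sarcoma of mouse 2721 stood far above the other 3. The fitted log2 fold change was 3.78 ± 0.99 (SE), and 2.34 without the sarcoma of mouse 2721.

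Ctss encodes cathepsin S, which cleaves the invariant chain of class II molecules in antigen-presenting cells. Marrow levels were 78.5 CPM at the lowest, 286 CPM at the median and 1381 CPM at the highest, and sarcoma levels were 737 CPM in mouse 948, 346 CPM in mouse 1267, 430 CPM in mouse 2721 and 129 CPM in mouse 1268_1270. The groups overlapped throughout, and the 2 marrows above every sarcoma were 737 and 779, whose libraries were low in long transcripts. The ratio of means was 0.845 over all samples and 1.81 without the 4 such libraries, so its direction depended on them.

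Among the exopeptidases, Ctsh encodes cathepsin H, an aminopeptidase. Its marrow levels were 56.8 CPM at the lowest, 121 CPM at the median and 718 CPM at the highest, and its sarcoma levels were 222 CPM in mouse 948, 60.2 CPM in mouse 1267, 60.8 CPM in mouse 2721 and 89.3 CPM in mouse 1268_1270. All 4 sarcomas lay inside the marrow range, and marrows 737 and 779 were again far above the rest. The ratio of means was 0.443, and 0.782 without the 4 libraries.

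Ctsc encodes the dipeptidyl peptidase that activates the serine proteases of neutrophil and lymphocyte granules. Its marrow levels were 45.1 CPM at the lowest, 100 CPM at the median and 282 CPM at the highest, and its sarcoma levels were 185 CPM in mouse 948, 44.6 CPM in mouse 1267, 43.5 CPM in mouse 2721 and 86.0 CPM in mouse 1268_1270. The sarcomas of mice 1267 and 2721 stood just below the lowest marrow, and the others were inside the range. The ratio of means was 0.664, and 1.01 without the 4 libraries.

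Ctsz encodes cathepsin X, a carboxypeptidase. It ran from 185 to 463 CPM in the marrows, with a median of 313 CPM, and from 289 to 466 CPM in the SMC3+/- sarcomas, a ratio of means of 1.09. The groups overlapped in the upper part of the marrow range, and 4 of 9 marrows were below the lowest sarcoma.

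Ctsd encodes cathepsin D, the main aspartic protease of the lysosome. Marrow levels were 438 CPM at the lowest, 650 CPM at the median and 1527 CPM at the highest, and sarcoma levels were 2301 CPM in mouse 948, 2363 CPM in mouse 1267, 1948 CPM in mouse 2721 and 2093 CPM in mouse 1268_1270. Every sarcoma was above every marrow, and with both tumours of mouse 948 summed the sarcomas were close to each other. Their SD on the log2 scale was 0.13, and 1.25% of 10115 genes had a smaller one, whereas the marrow SD of 0.66 was nearer the median gene's 0.79. The ratio of means was 2.70. The closeness of the sarcomas depended on the low library of mouse 948: without the 4 libraries the sarcomas ran from 1910 to 3335 CPM with an SD of 634 CPM, against 191 CPM over all libraries, and the ratio was 3.15.

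Ctsa encodes a serine carboxypeptidase that also protects beta-galactosidase and neuraminidase in the lysosome. It ran from 161 to 431 CPM in the marrows, with a median of 250 CPM, and from 289 to 433 CPM in the sarcomas, a ratio of means of 1.36. The ranges overlapped, although the lower marrows had no counterpart among the sarcomas.

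Over the 9 members, edgeR's quasi-likelihood test called 3 higher in sarcoma (Ctsl, Ctsk and Ctsd) and 0 lower at an adjusted p under 0.05, beside 4.49% of 14730 genes called higher and 0.0543% lower. Sarcomas lay above all marrows for the same 3 members and for 4.09% of genes tested, and below all marrows for 0 members and 0.285% of genes. The members were picked from this contrast, so nothing is read from those counts. The median log2 fold change was 0.44 over the members and 0.07 over all genes tested.

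**Figure D1:**
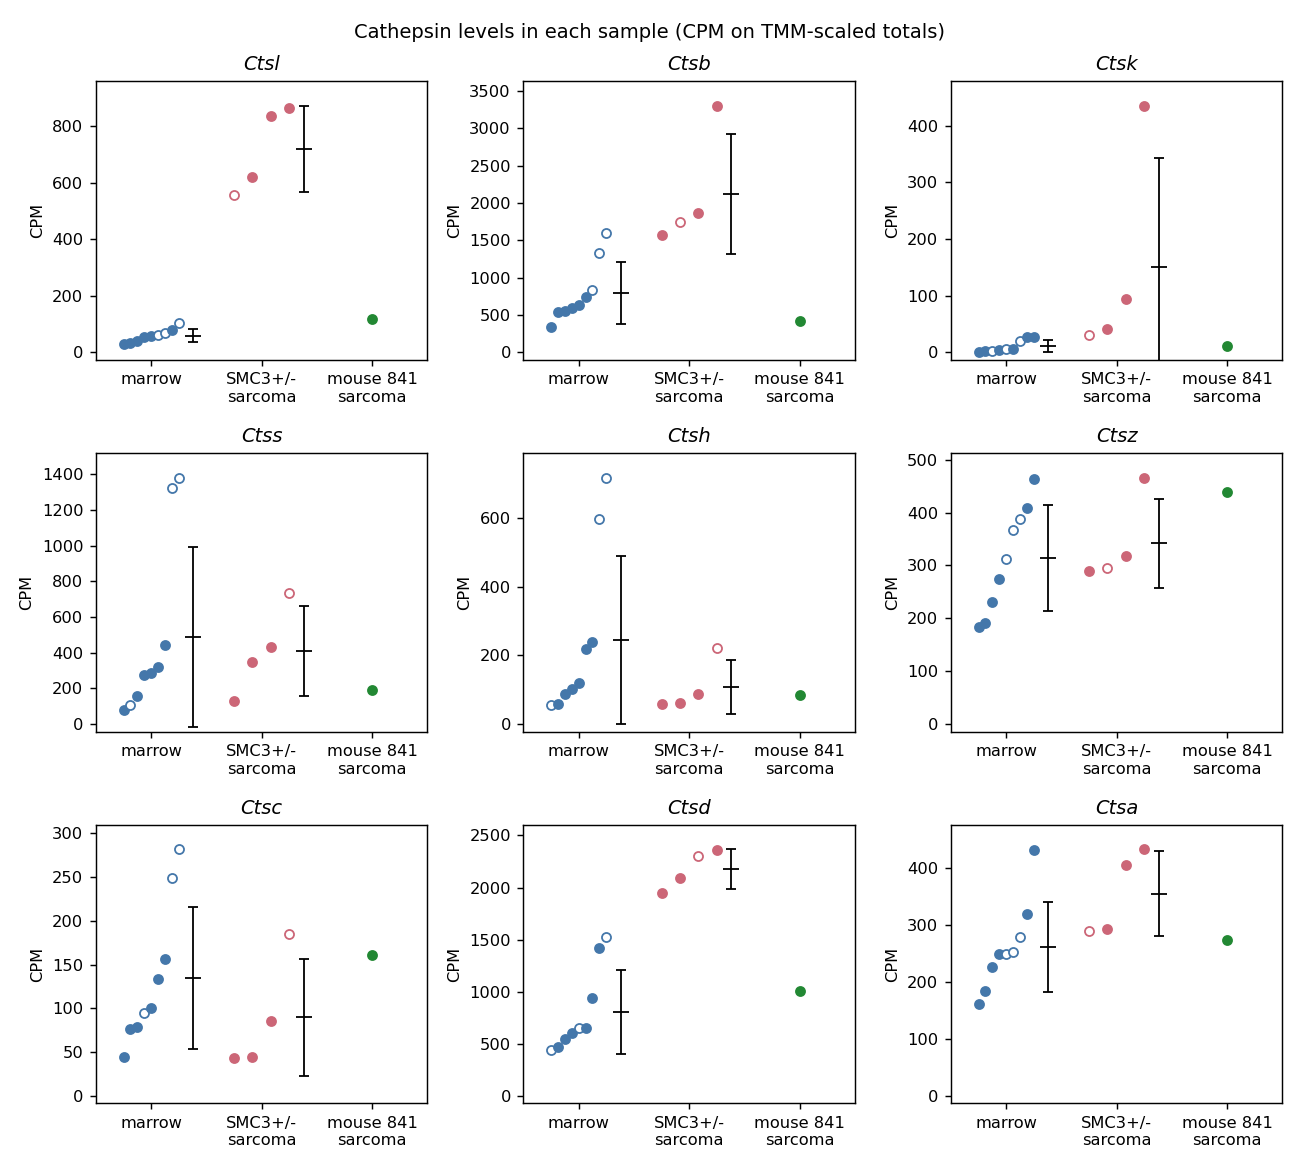
CPM of each cathepsin gene in the 9 marrows, the 4 SMC3+/- sarcomas and the sarcoma of mouse 841, with 1 point per sample sorted by level within its group and the mean ± SD beside it (bars that would fall below 0 are cut at the axis). Open points are samples with a library low in long transcripts. Ctsl, Ctsk and Ctsd show 4 sarcomas above all marrows, and the highest marrows for Ctss and Ctsh are open points.

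To compare members with each other, CPM was divided by transcript length in kilobases, with the caveat that Ctsl also has a principal transcript of 6168 bases beside the 1971 bases used. In the sarcomas the order was Ctsd at 1023 ± 89.9 CPM per kb, Ctsb at 447 ± 168, Ctsl at 365 ± 77.8, Ctss at 303 ± 186 and Ctsz at 237 ± 58.1 (SD, n = 4). Ctsk at 99.5 ± 127, Ctsa at 97.4 ± 20.6, Ctsh at 66.9 ± 47.8 and Ctsc at 36.0 ± 26.7 CPM per kb followed. Only the step from Ctsd to Ctsb exceeded the SDs, and all other neighbours in that order overlapped within theirs.

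In the marrows Ctsd at 379 ± 191 and Ctss at 359 ± 372 CPM per kb led (SD, n = 9). Ctsz at 218 ± 69.2, Ctsb at 168 ± 86.4, Ctsh at 151 ± 151, Ctsa at 71.8 ± 21.7, Ctsc at 54.2 ± 32.5, Ctsl at 30.3 ± 12.2 and Ctsk at 7.23 ± 7.18 CPM per kb followed. Only the step from Ctsl to Ctsk exceeded the SDs. Ctsl was thus 7th or 8th of 9 in each marrow and between 2nd and 4th in each SMC3+/- sarcoma. These ranks and the shares below rest on its 1971-base transcript. With that of 6168 bases its level per kb and its share would be lower in every sample. Ctsd was the first member in all 4 SMC3+/- sarcomas, in the sarcoma of mouse 841 and in 6 of 9 marrows, and Ctss was first in the other 3 marrows.

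The make-up of the summed level per kb changed accordingly. Ctsl took 2.25 ± 0.83% of it in the marrows (SD, n = 9) and 13.7 ± 3.02% in the sarcomas (SD, n = 4), without overlap. Ctsh took 9.23 ± 5.63% and 2.47 ± 1.67%, and Ctsz took 16.4 ± 4.73% and 8.86 ± 2.05%, in the same order. The share of Ctsb was 26.7% in the sarcoma of mouse 1268_1270 and 12.9 to 14.4% in the other 3, and the share of Ctsk was 11.2% in that of mouse 2721 and at most 2.28% in the others. Ctsd took 35.8 to 40.6% in the SMC3+/- sarcomas, 8.39 to 50.4% in the marrows and 37.3% in the sarcoma of mouse 841. Its large part was therefore not particular to the SMC3+/- sarcomas. Ctsb took more than Ctsl in the sarcomas of mice 948, 2721 and 1268_1270. The SMC3+/- sarcomas thus differed in which further protease stood out. The summed level of the 9 members was 5856 to 7189 CPM in the SMC3+/- sarcomas, 1379 to 5079 CPM in the marrows and 2710 CPM in the sarcoma of mouse 841.

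**Figure D2:**
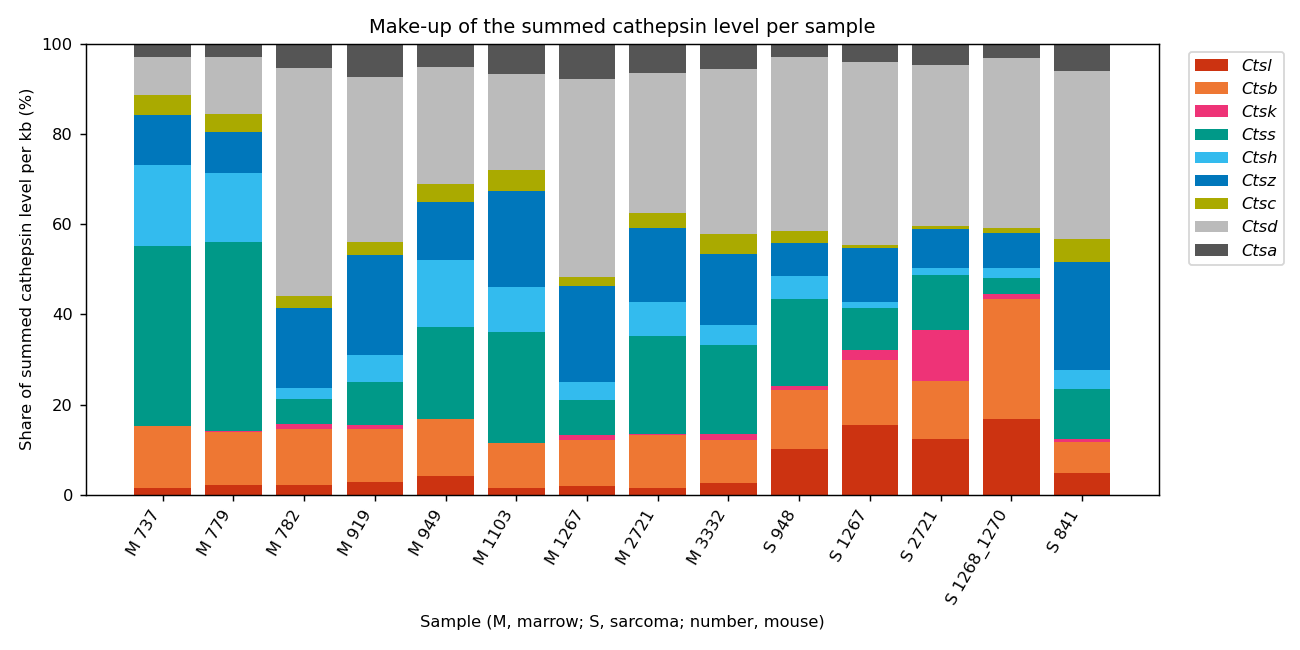
Share of each cathepsin in the summed level per kb of the 9 members, in percent, for each marrow (M) and sarcoma (S) by mouse number. Ctsl takes 10.1 to 16.8% in the 4 SMC3+/- sarcomas, 1.46 to 4.04% in the marrows and 4.73% in the sarcoma of mouse 841, and Ctss takes 39.8 and 42.1% in marrows 737 and 779.

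The marrows differed from one another along at least a pair of patterns. Marrows 737 and 779 were the highest in Ctsb (1602 and 1332 CPM), Ctss (1324 and 1381 CPM), Ctsh (718 and 596 CPM) and Ctsc (282 and 249 CPM). They were also the highest in Cst3, the secreted inhibitor cystatin C, at 2714 and 2107 CPM. Both libraries were low in long transcripts, and the part of that in the pattern was not tested. Marrows 782 and 1267 were instead the highest in Ctsd, at 1527 and 1417 CPM. They were also the highest in Stfa1, a cytosolic cysteine protease inhibitor of the stefin family, at 2272 and 2212 CPM. Only the first of these libraries was low in long transcripts. Ctsk was the most variable member, with a log2 SD of 2.59 in the marrows and 1.72 in the sarcomas, while Ctsz and Ctsa were among the least variable in the marrows at 0.48 and 0.42.

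Both tissues of the same mouse could be compared in mice 1267 and 2721. In mouse 1267 the sarcoma level was 14.9 times the marrow level for Ctsl, 2.53 times for Ctsb, 3.40 times for Ctsk, 2.22 times for Ctss and 1.67 times for Ctsd. In mouse 2721 the ratios were 20.9 for Ctsl, 2.88 for Ctsb, 91.3 for Ctsk, 1.50 for Ctss and 2.99 for Ctsd. Ctsh and Ctsc were lower in the sarcoma of both animals, with ratios of 0.590 and 0.579 in mouse 1267 and 0.502 and 0.554 in mouse 2721. In each mouse 4 of 9 members were at least 2-fold higher in the sarcoma, where 30.4% of genes were in mouse 1267 and 28.3% in mouse 2721, and 0 members were at least 2-fold lower, where 10.2 and 13.7% of genes were. With 1 sample of each tissue per mouse these ratios have no replicate.

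The tumours of 1 mouse were compared in the same way. In mouse 948 Ctsl was 265 CPM in tumour 1 and 1073 CPM in tumour 2, and Ctsa was 186 and 484 CPM. These were the only members at least 2-fold apart, 8 of 9 members were higher in tumour 2, and 52.4% of 10115 genes were at least 2-fold apart between these libraries. Tumour 1 is the sarcoma library low in long transcripts. In mouse 2721 Ctsl was 686 and 533 CPM and Ctsk was 376 and 486 CPM. No member was 2-fold apart there, the largest ratio was 1.62 for Ctss, and 1.79% of genes were at least 2-fold apart.

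**Figure D3:**
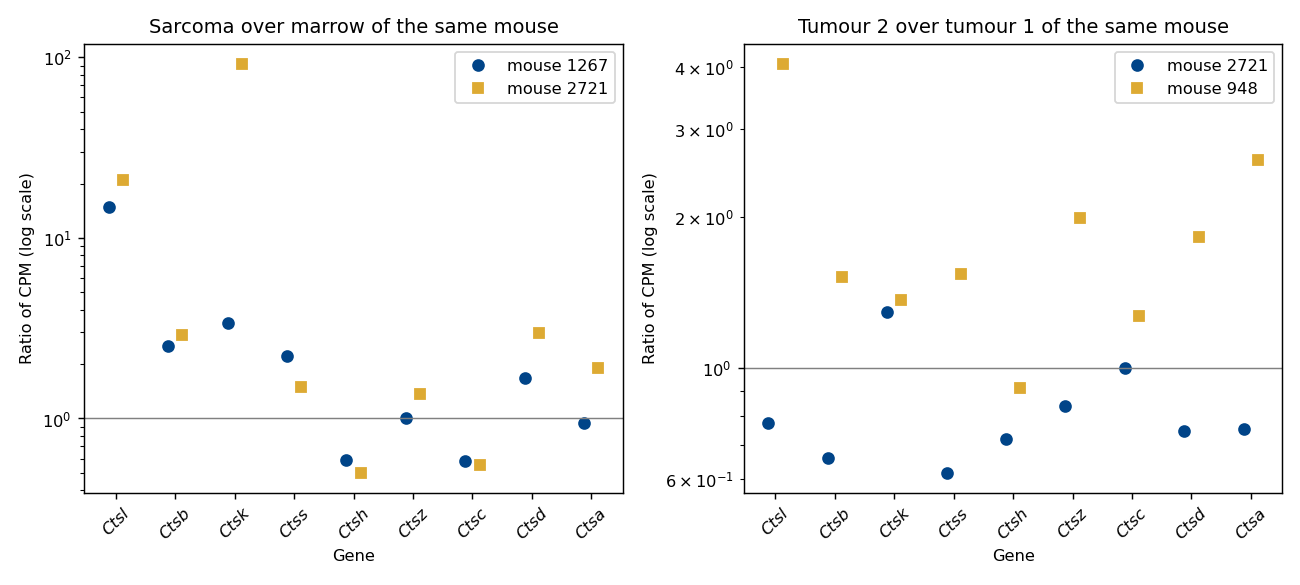
Ratios of CPM on log axes for each cathepsin, with the sarcoma over the marrow of the same mouse on the left (mice 1267 and 2721) and tumour 2 over tumour 1 of the same mouse on the right (mice 948 and 2721). Ctsl is 14.9 and 20.9 times higher in the sarcoma, and the tumours of mouse 948 differ 4.05-fold in Ctsl while those of mouse 2721 stay within 1.62-fold for every member.

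The sarcoma of mouse 841 was compared with the 4 SMC3+/- sarcomas as the 1 comparison of genotypes. These 4 sarcomas are the samples whose high Ctsl chose the family, which by itself favours a lower value in mouse 841, so the values below are a description and nothing is read from their direction. Ctsl stood at 118 CPM in mouse 841, below all 4 SMC3+/- sarcomas and just above the highest marrow at 106 CPM. Ctsb at 423 CPM, Ctsk at 10.6 CPM, Ctsd at 1007 CPM and Ctsa at 275 CPM were also below all 4. Ctsz at 440 CPM, Ctsc at 161 CPM, Ctss at 191 CPM and Ctsh at 84.0 CPM were inside the SMC3+/- range. So 5 of 9 members were below all 4 SMC3+/- sarcomas, as were 18% of the 17762 genes tested, and 8 of 9 were inside the marrow range.

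The log2 fold change of Ctsl was -2.63 with a 95% interval from -5.05 to -0.21, with an adjusted p of 1.00 by edgeR's quasi-likelihood test. That of Ctsb was -2.33 with an interval from -5.36 to 0.71, and that of Ctsk was -3.92 with an interval from -8.83 to 0.99. For Ctsd it was -1.14, from -3.88 to 1.59, and for Ctsc, on the other side, 0.83, from -1.29 to 2.95. The same adjusted p, 1.00, was reached by all 9 members, so 0 were called, as was 0% of all genes in either direction. With 1 sample against 4 the intervals span several doublings, and in simulated data of this design the test called none of the genes made to differ, so the absence of calls says nothing about the members. At an unadjusted p under 0.05 the test gave 236 genes, and DESeq2 called 65 at an adjusted p under 0.05, Ctsl among them. The edgeR number is a smaller share of the 17762 genes tested than the 0.05 that the threshold alone allows. Nothing is read from either number. The median log2 fold change was -1.14 over the members and -0.33 over all genes tested.

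**Figure D4:**
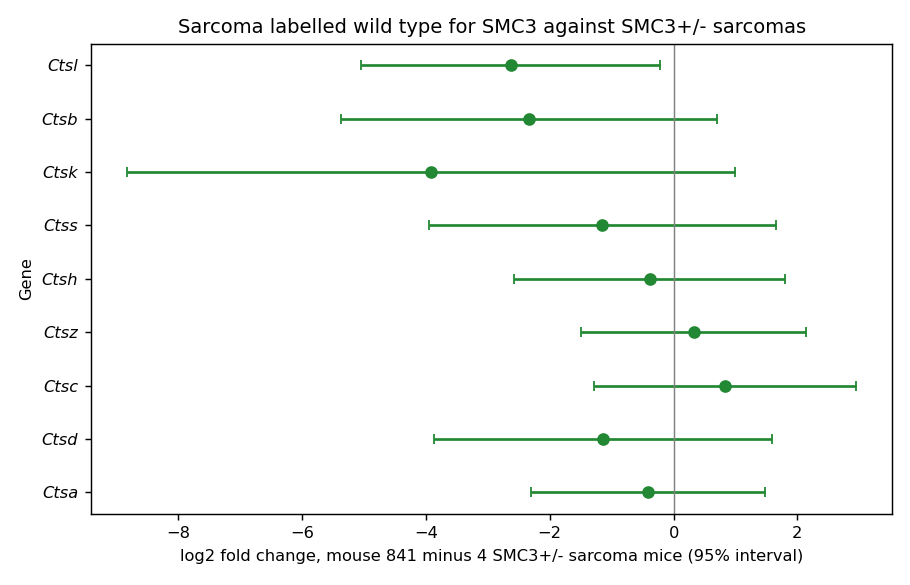
Fitted log2 fold change of each cathepsin in the sarcoma of mouse 841 against the 4 SMC3+/- sarcomas, with its 95% interval from edgeR. The interval of Ctsl, from -5.05 to -0.21, lies below 0, and the intervals of the other 8 members include 0.

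The inhibitors of the cathepsins were measured beside them. None of the 13 inhibitor genes that could be tested by edgeR was called in either direction (0 of 13), and their median log2 fold change was -0.74. With the mouse as a block 4 of them were called lower, both over all samples and in mice 1267 and 2721 alone, and under scaling to pan-leukocyte genes 3 were called higher. DESeq2 was the only other alternative with a lower call among the inhibitors. Cst3 was 1030 ± 832 CPM in the marrows (SD, n = 9) and 792 ± 230 CPM in the sarcomas (SD, n = 4), with a log2 fold change of -0.38 ± 0.57 (SE) and an edgeR adjusted p of 0.925. Stfa1 was 522 ± 976 and 70.4 ± 130 CPM, with a log2 fold change of -2.89 ± 2.08 and an edgeR adjusted p of 0.688. The ratio of Ctsl to Cst3, in CPM, was 0.0260 to 0.211 in the marrows, 0.548 to 1.71 in the SMC3+/- sarcomas and 0.152 in the sarcoma of mouse 841. The ranges of this ratio in marrow and SMC3+/- sarcoma did not overlap, a description that rests on the Ctsl values by which it was chosen.

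Other lysosomal genes passed the threshold about as often as all genes, of which 4.49% were called higher. Among 37 other hydrolases and activators 2 were called higher and 0 lower, with a median log2 fold change of -0.05. When libraries were scaled to pan-leukocyte genes instead, which moved the median of all genes to 1.99, 20 of these 37 and 14 of 26 membrane and proton pump genes were called higher. Lgmn, which encodes legumain, the asparaginyl endopeptidase that processes cathepsin precursors, rose from 20.2 ± 9.79 CPM (SD, n = 9) to 174 ± 47.0 CPM (SD, n = 4), a log2 fold change of 3.11 ± 0.47 with an edgeR adjusted p of 0.0017. Its sarcoma levels were 219 CPM in mouse 948, 156 CPM in mouse 1267, 205 CPM in mouse 2721 and 116 CPM in mouse 1268_1270, and no marrow exceeded 31.9 CPM. With the mouse as a block its log2 fold change was 2.79 with an edgeR adjusted p of 0.035. In mouse 841 Lgmn stood at 34.9 CPM, next to the marrows as Ctsl did.

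Acp5, which encodes the tartrate-resistant acid phosphatase of osteoclasts and macrophages, was the other call, with a log2 fold change of 2.59 ± 0.61 and an edgeR adjusted p of 0.0233. It was 381 CPM in the sarcoma of mouse 1268_1270 and 22.4 to 48.1 CPM in the other 3, against 7.71 to 29.7 CPM in the marrows. Without that sarcoma its log2 fold change was 0.77, with the mouse as a block it was 0.81, and neither was called. Acp5 was also not called when the 4 low libraries were left out.

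Of 26 genes of the lysosomal membrane and proton pump, 1 was called higher and 0 lower, and the median log2 fold change was 0.05. The call was Atp6v0d2, a proton pump subunit isoform known from osteoclasts and macrophages, at 7.12 ± 5.31 CPM in the marrows and 73.9 ± 57.1 CPM in the sarcomas, with a log2 fold change of 3.38 ± 0.76 and an edgeR adjusted p of 0.0187. It was 122 CPM in the sarcomas of both mouse 1267 and mouse 2721, 44.1 CPM in that of mouse 948 and 8.09 CPM in that of mouse 1268_1270, so the sarcoma that was highest in Acp5 was within the marrow range for Atp6v0d2. Its edgeR adjusted p was 0.0514 without the sarcoma of mouse 2721 and 0.0932 without the 4 libraries low in long transcripts. Lamp1, an abundant lysosomal membrane protein, was 725 ± 329 and 710 ± 135 CPM, with an edgeR adjusted p of 0.997.

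Of 11 genes for sorting enzymes to the lysosome 0 were called, with a median log2 fold change of -0.20, and of 7 genes for the MiT/TFE factors and their regulators 0 were called, with a median of 0.20. Under pan-leukocyte scaling 5 of the 11 sorting genes and 5 of the 7 MiT/TFE genes were called higher, as were 5 of the 8 class II genes and 2 of the other cathepsins described next. M6pr, a mannose 6-phosphate receptor, was 362 ± 195 CPM in the marrows and 291 ± 125 CPM in the sarcomas, with an edgeR adjusted p of 0.915. Among 5 tested serine proteases that Ctsc activates, 0 were called and the median was -0.22. Elane, neutrophil elastase, was 5921 ± 4920 and 6993 ± 5664 CPM, with an edgeR adjusted p of 0.987. Among 8 class II genes, whose invariant chain Ctss cleaves, 0 were called and the median was -0.20. Cd74, that invariant chain, was 233 ± 279 and 261 ± 285 CPM, with an edgeR adjusted p of 0.992. Of 15 other cathepsin and cathepsin-like genes listed, 6 could be tested and 0 were called, with a median of -0.72. In 3 of 14 alternatives, DESeq2 among them, and in the fit without marrow 737, 1 gene of that list was called lower. Ctsg, a serine protease named a cathepsin, was 2885 ± 2214 and 2601 ± 1883 CPM, with an edgeR adjusted p of 0.992.

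**Figure D5:**
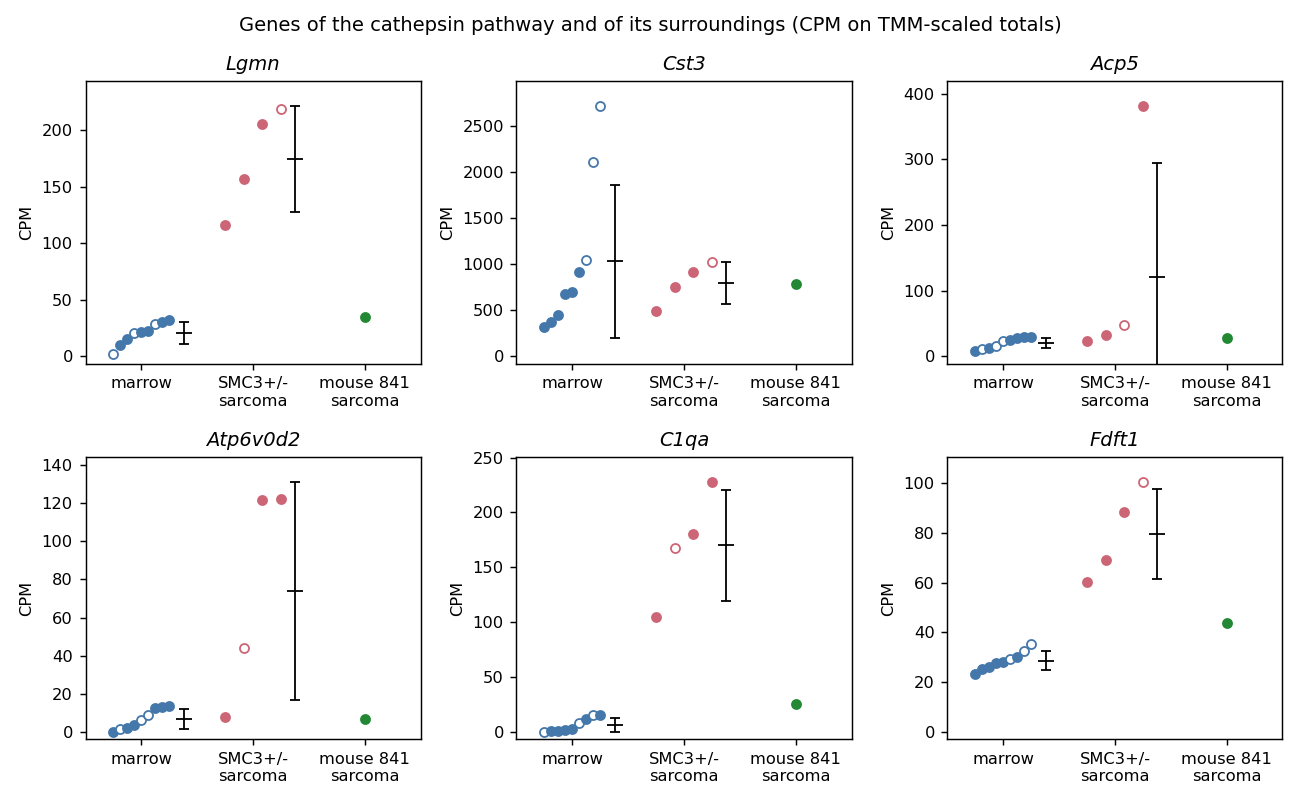
CPM of 6 genes measured beside the cathepsins in the 9 marrows, the 4 SMC3+/- sarcomas and the sarcoma of mouse 841, with points sorted by level, mean ± SD beside them (cut at the axis below 0) and open points for samples with a library low in long transcripts. Lgmn and C1qa show 4 sarcomas above all marrows, Acp5 is high in 1 sarcoma, and Cst3 overlaps between the groups.

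Markers of other cell types moved with the tissue and therefore stand beside the values of Ctsl, Ctsb, Ctsk, Ctsd and Lgmn. Of 17 macrophage markers 6 were called higher and 0 lower, with a median log2 fold change of 3.08. Without the sarcoma of mouse 1268_1270 the count was 2, and under pan-leukocyte scaling it was 15. Their summed level was 280 to 1174 CPM in the marrows, 2316 to 5663 CPM in the SMC3+/- sarcomas and 599 CPM in the sarcoma of mouse 841. The gap between the first ranges rests on Apoe and Gpnmb. Apoe was 4496 CPM in the sarcoma of mouse 1268_1270 and 1398 CPM in that of mouse 2721. Gpnmb was 1136 CPM in the sarcoma of mouse 1267 and 831 CPM in that of mouse 948. In the marrows Apoe and Gpnmb reached 404 and 663 CPM. C1qa, a complement subunit made by macrophages, was 6.28 ± 6.31 CPM in the marrows, 170 ± 50.9 CPM in the SMC3+/- sarcomas and 25.6 CPM in the sarcoma of mouse 841, with an edgeR adjusted p of 0.00719 for the tissue difference. C1qa, Ctsl and Lgmn thus had the same order of groups, but 11 of the 17 markers were not called and not all had that order. Csf1r was 14.7 to 225 CPM in the marrows, 37.5 to 154 CPM in the SMC3+/- sarcomas and 41.5 CPM in mouse 841. Emr1 was 19.0 to 317 CPM, 40.3 to 254 CPM and 129 CPM in the same groups. In the low library of marrow 782, 11 of the 17 markers were at 0, and in the SMC3+/- sarcomas at most 1 was.

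Of 7 osteoclast markers tested, 2 (Acp5 and Atp6v0d2) were called higher, and the median was -0.57. With the 4 low libraries left out 0 osteoclast markers were called higher, and under pan-leukocyte scaling 3 were. The summed level of the 10 in the table was 164 to 3652 CPM in the marrows, 310 to 760 CPM in the SMC3+/- sarcomas and 243 CPM in the sarcoma of mouse 841. In the sarcoma of mouse 2721, which had the most Ctsk, Calcr and Dcstamp were at 0 and Oscar and Ocstamp at 0.0672 and 0.134 CPM. In the same sarcoma Tnfrsf11a was 7.15 CPM, Acp5 31.6 CPM, Itgb3 34.9 CPM, Nfatc1 42.6 CPM, Atp6v0d2 122 CPM and Mmp9 522 CPM, so the list was split. Of these, Tnfrsf11a, Acp5 and Atp6v0d2 were above every marrow. Itgb3, Nfatc1 and Mmp9 were inside their marrow ranges, which reached 104, 139 and 3393 CPM. Mmp9 made up most of the highest summed level, that of marrow 949. Of the other lists, 8 of 10 fibroblast, 4 of 8 endothelial, 7 of 7 adipocyte and 6 of 8 skeletal muscle markers were called higher. Without the sarcoma of mouse 1268_1270 these counts were 6, 1, 4 and 4, and without that of mouse 948 the muscle count was 3. In the blocked fit of all samples they were 5, 1, 5 and 1. Over the 14 alternatives the muscle count ran from 0, with the 4 low libraries left out, to 8 under pan-leukocyte scaling. The adipocyte count ran from 0 with DESeq2 to 8 with no filter. In the neutrophil, lymphocyte, erythroid and pan-leukocyte lists 0 genes were called, although under pan-leukocyte scaling 5 erythroid genes were called higher. In 2 of 14 alternatives, DESeq2 among them, 1 erythroid gene was called lower. The summed fibroblast level was 7.59 to 5922 CPM in the marrows, where Fn1 alone reached 5890 CPM, and 1463 to 5023 CPM in the SMC3+/- sarcomas, with 1605 CPM in mouse 841. The part of these cells in the cathepsin levels was not tested.

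Over the 14 samples the genes most like Ctsl among 9136 compared, by Pearson correlation of log2 CPM, were Fth1 (ferritin heavy chain, 0.90), Fdft1 (squalene synthase, 0.90), Sparc (a matrix glycoprotein, 0.88), Pltp (phospholipid transfer protein, 0.85) and Sepp1 (selenoprotein P, 0.85). Ctsb ranked 9th at 0.81, Ctsd 12th at 0.80, Ctsk 150th at 0.59 and Ctsa 304th at 0.52. Ctss at 0.15, Ctsz at 0.22, Ctsh at -0.19 and Ctsc at -0.22 were not alike. These 14 points contain the tissue difference that chose Ctsl. Within the 9 marrows the leading genes were Ccndbp1 (0.92), Sat1 (0.91), Sqrdl (0.90), Nampt (0.90) and Tmub2 (0.89), and the correlation was 0.70 for Ctsb and 0.11 for Ctsd. Both sets of values are descriptions over few samples that also differ in library quality.

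Fdft1 and Pltp overlap members of the family. In the GENCODE annotation, exons of Fdft1 share 774 bases with Ctsb, and those of Pltp share 311 bases with Ctsa, on opposite strands in both cases. Predicted genes share exon bases with Ctsl (977 with Gm47123, opposite strand, and 395 with Gm49230, same strand) and Ctsd (227 with Gm49369, same strand). Neurl2 shares 324 bases with Ctsa and Nelfcd 10 with Ctsz, on opposite strands. No source used here gives the strand setting of the counting, so reads from the shared bases may not be told apart. The level of Fdft1 was 0.0209 to 0.103 of that of Ctsb over the 14 samples, and the level of Pltp was 0.0395 to 0.618 of that of Ctsa.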

How the data were processed

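RNA was sequenced from 16 mouse libraries. The authors deposited raw counts per gene in 1 table of 23999 symbols, which held 0 spike-in rows and 0 rows with no name. Per the submitters' processing notes STAR, DESeq, DESeq2 and mm9 were used, with no version or role stated. Per the labels' protocols, libraries were made from poly(A) RNA with a NEBNext kit. Annotation and strand setting: not given in the sources used here.

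Counts of libraries that share a mouse and a tissue were added, which gave 14 samples, and library totals were scaled by TMM. The closest pair of libraries, the 2 tumours of mouse 2721, differed by more than sampling noise (mean chi-square per gene 17.8). Genes passing filterByExpr were tested with edgeR 4.0.16 (robust quasi-likelihood, R 4.3.3, two-sided, Benjamini-Hochberg over all genes tested, threshold 0.05), 4 SMC3+/- sarcomas against 9 SMC3+/- marrows and mouse 841 against the 4 sarcomas. In the latter the lone sample is assumed to vary like the others. DESeq2 1.42.0 and limma 3.58.1 (voom) were alternatives, and the fits were tested on simulated data. The labels tie replicates to animals, and p-values measure the spread between these mice. Counts without molecular identifiers limit the precision, and floors (3 counts) and intervals cover counting error or the fitted spread only.

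The members, lists and tests were chosen with earlier results of these data known. Named genes are the 9 members and, per list, up to 4 called genes with the smallest adjusted p (or the most abundant, to make 2). The 5 genes most like Ctsl over all samples and over marrows are named too (average log2 CPM at least 3, prior count 2). Of these only those a description needed are given. Smc3, Fn1, Gpnmb, Csf1r, Emr1 and the osteoclast markers other than Acp5 and Atp6v0d2 lie outside the rule and were added after their values were seen. Mice 1267 and 2721 gave both tissues, so their samples are paired by animal, and the correlations of their deviations from the group means were 0.37 and 0.28. Transcript lengths are from GENCODE M21 (the shortest principal transcript) and promoters from RefSeq on GRCm38.p6, used for lengths, overlaps and letters only, since the counts were made on mm9. Alternatives were other scalings, filters and tools, leaving out libraries or mice, tumours as units, and the mouse as a block.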

Additional observations from a re-analysis of the deposited data

Results flagged for a closer look

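Of 18 groups of members' levels checked for a sample far from the others (9 members in marrow and in SMC3+/- sarcoma, on the log2 CPM scale), 1 was found: Ctsk in marrow 949. Its gap to the nearest marrow was 0.590 of the whole range, which is above Dixon's 95% critical value for 9 samples. Its library held 0 counts of Ctsk, and chance alone marks about 1 group in 20.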

How the results depend on the processing

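Against 662 genes higher and 8 lower in sarcoma, of which 3 and 0 were members, scaling to the pan-leukocyte list gave 7470 higher with 6 members and moved the median of all genes from 0.07 to 1.99. Ctsh at 0.55, Ctss at 0.73, Ctsc at 1.27 and Ctsz at 1.95 lay below that median. No filter gave 1355 and 13, and leaving out the 4 libraries low in long transcripts gave 300 and 3, or 62 and 0 without sarcoma 1268_1270 as well. The replicate block (mice 1267 and 2721 are paired) gave 107 and 23 over all samples and 81 and 33 in those mice alone, with 1 member (Ctsl) in both. Lower calls were 83 with DESeq2, 21 with voom, 26 with tumours as units and 20 with mouse 841 added. Members called were 1 with the stricter filter, with the first tumour of each mouse and with mouse 841 added. Leaving out each mouse gave 170 to 780 higher (170 without sarcoma 1268_1270), 0 to 24 lower (2 without sarcoma 1267 and 5 without marrow 919, 949, 2721 or 3332) and 1 to 3 members. The comparison of mouse 841 gave 65 calls with DESeq2 and 0 to 1 when each sarcoma was left out, and its direction turned for Ctsz (-1.15) and Ctsc (-0.72) under pan-leukocyte scaling and for Ctsh (0.40) without sarcoma 948. The causes were not tested. Of the members' 243 values in the tissue comparison, 233 moved by less than the replicate SD, and 13 changed direction. That measure takes no account of the call. Ctsl was called in all 13 fits that left out a mouse and in all 14 other alternatives. Ctsk and Ctsd were each called in 5 of those 13 and in 7 of those 14. The members were picked from this same contrast, so nothing is read from how often they were called. Of the members' 135 values for mouse 841, 3 changed direction. A single sarcoma without the SMC3 mutation, at the lowest depth, limits the genotype comparison.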
